A study of Caenorhabditis elegans with 2 samples.

Results

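The genes described here encode the proteins of the large subunit of the cytosolic ribosome of *Caenorhabditis elegans*. They were chosen by name, as protein-coding genes whose symbol is *rpl-* followed by a number, or *rla-0*, *rla-1* or *rla-2*. There were 50 of them among 19973 protein-coding genes. The question put to each was whether, and where, UNC-98 fused to GFP was recovered at its promoter. UNC-98 is known as a zinc finger protein found both in the nucleus and where the muscle's contractile filaments are anchored. Chromatin came from whole larvae of strain OP85 in the starved L1 stage, at an age of 6 hours, so cells of all tissues were mixed. OP85 carries the integrated transgene wgIs85, in which *unc-98* carries TY1, EGFP and 3xFLAG tags. The strain also has *unc-119*(+), which rescues its *unc-119*(ed3) mutation. Anti-GFP chromatin immunoprecipitation and sequencing (ChIP-seq) was done on 2 biological replicates, which form 1 group. No untagged strain was analysed here, so signal that does not depend on UNC-98 cannot be told apart from signal that does.

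The large subunit joins amino acids into protein. It holds the peptidyl transferase centre, a tunnel through which the new chain leaves, and a stalk of acidic proteins that recruits the GTP-hydrolysing translation factors. Its proteins are needed in fixed proportion. Most are encoded by a single gene, a few by a pair, and in growing animals these genes are among the most heavily transcribed. One member stands apart from the label: *rpl-24.2* is the worm counterpart of a yeast factor of ribosome assembly and not a protein of the mature ribosome.

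A gene was counted as bound when the summit of a deposited region, the position of its highest signal, lay from 1000 bp upstream to 500 bp downstream of an annotated 5′ end of the gene. Of the 50 genes, 9 were bound in the conservative list, whose 728 regions had to rank alike in the 2 replicates. That is 18% of the members, against 3.16% of all protein-coding genes. The 9 genes were *rpl-3*, *rpl-7A*, *rpl-12*, *rpl-15*, *rpl-20*, *rpl-24.2*, *rpl-35*, *rpl-41.2* and *rpl-43*, and *rpl-41.2* had 2 regions, which makes 10 regions. Since the 2 replicates form a single group, all counts and medians here are descriptions, and no p-value is given.

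The deposited signal separated these regions into a strong and a weak set. Signal is the score that the authors' software gave a region, at a scale not stated, and the median over the 728 regions was 105. Signals ran from 241 to 422 at *rpl-3*, *rpl-20*, *rpl-15*, *rpl-7A*, *rpl-43*, *rpl-12* and *rpl-35*, and from 71.1 to 125 at *rpl-41.2* and *rpl-24.2*. The sequences of the 7 strong regions are shown, as those with the highest signals among the member regions. Each is up to 200 bases centred on the summit, read 5′ to 3′ on the strand of the ribosomal protein gene from the RefSeq copy of the build WBcel235, and stopped where an annotated exon begins. Capitals mark 8 words of 7 letters that recurred among the member regions, on either strand.
*rpl-3*, chrIII:3867465-3867664, plus strand: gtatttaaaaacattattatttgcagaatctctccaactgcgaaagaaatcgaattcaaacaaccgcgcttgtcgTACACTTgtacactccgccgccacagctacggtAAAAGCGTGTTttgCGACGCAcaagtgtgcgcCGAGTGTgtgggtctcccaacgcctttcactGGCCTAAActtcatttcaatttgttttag
*rpl-20*, chrIV:4749964-4750163, minus strand: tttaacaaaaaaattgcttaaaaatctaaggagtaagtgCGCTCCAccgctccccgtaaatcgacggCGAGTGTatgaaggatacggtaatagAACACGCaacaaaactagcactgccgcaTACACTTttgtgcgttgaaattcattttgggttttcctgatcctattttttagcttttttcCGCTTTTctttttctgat
*rpl-15*, chrIV:654821-655020, minus strand: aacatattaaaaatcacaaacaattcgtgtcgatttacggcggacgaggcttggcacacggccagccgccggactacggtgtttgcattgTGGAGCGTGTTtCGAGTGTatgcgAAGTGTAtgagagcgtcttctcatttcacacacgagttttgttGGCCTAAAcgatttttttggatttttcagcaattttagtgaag
*rpl-7A*, chrIV:4390591-4390749, minus strand: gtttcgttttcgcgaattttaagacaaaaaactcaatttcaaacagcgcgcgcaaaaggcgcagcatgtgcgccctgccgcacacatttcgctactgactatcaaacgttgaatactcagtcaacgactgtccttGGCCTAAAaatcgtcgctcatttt
*rpl-43*, chrII:14154437-14154636, plus strand: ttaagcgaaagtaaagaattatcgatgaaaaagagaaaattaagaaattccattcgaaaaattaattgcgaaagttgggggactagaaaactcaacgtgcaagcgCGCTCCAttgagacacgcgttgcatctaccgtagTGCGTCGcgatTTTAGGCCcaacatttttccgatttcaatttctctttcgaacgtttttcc
*rpl-12*, chrIV:13240652-13240778, minus strand: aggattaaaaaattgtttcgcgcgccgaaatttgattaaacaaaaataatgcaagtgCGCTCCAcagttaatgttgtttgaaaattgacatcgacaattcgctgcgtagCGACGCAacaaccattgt
*rpl-35*, chrIII:7854571-7854770, plus strand: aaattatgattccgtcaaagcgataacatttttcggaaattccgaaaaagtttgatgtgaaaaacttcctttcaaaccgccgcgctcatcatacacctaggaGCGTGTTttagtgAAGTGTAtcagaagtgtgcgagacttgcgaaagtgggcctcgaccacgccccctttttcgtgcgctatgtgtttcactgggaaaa

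The 8 words were looked for after these sequences had been seen and are a description with no test. They are those of the 8192 possible words, counting a word and its reverse complement as 1, that lay within 100 bp of the summit in at least 4 of the 10 member regions and in fewer than 5% of promoter windows. A promoter window is the stretch up to 100 bp either side of a point 200 bp upstream of a gene's outermost 5′ end, so it need not cover the summit of a bound gene. CGACGCA was held by 5 of the 10 member regions, against 2.34% of all conservative regions and 0.896% of promoters. It lay at *rpl-3*, *rpl-12*, *rpl-43*, *rpl-24.2* and the weaker of the 2 *rpl-41.2* regions, which neither replicate list called. CGCTCCA was held by 4, at *rpl-12*, *rpl-15*, *rpl-20* and *rpl-43*, against 7.14% of conservative regions and 1.73% of promoters. The words were also found at small-subunit genes. Of the 9 regions there, 2 held CGCTCCA, 2 held GGCCTAA and 2 held GCCTAAA. Of the other words AACACGC was in 0 of those 9 and each of the rest in 1.

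AACACGC was held by the 4 regions at *rpl-3*, *rpl-15*, *rpl-20* and *rpl-35*, and AAGTGTA by the same 4. ACACTCG was held by those at *rpl-3*, *rpl-15*, *rpl-20* and *rpl-24.2*, and AAAAGCG by those at *rpl-3*, *rpl-20*, *rpl-24.2* and *rpl-41.2*. Their shares over all conservative regions were 4.53%, 3.71%, 2.20% and 5.49%. The number of the 8 words per region was highest at *rpl-3* with 7, followed by *rpl-15* with 6, *rpl-20* with 5 and *rpl-43* with 4. The weak region at *rpl-24.2* held 3. The strong regions at *rpl-7A*, *rpl-12* and *rpl-35* held 2 each, and the 2 regions at *rpl-41.2* held 1 each. Overlapping words were counted separately in these tallies. GGCCTAA and GCCTAAA share 6 bases and lay together at *rpl-3*, *rpl-7A*, *rpl-15* and *rpl-43*, so the 2 words at *rpl-7A* are a single stretch. At least 3 words were held by 5 of the 10 member regions, a share fixed in part by how the words were chosen, by 1.51% of all conservative regions and by 0.165% of promoters.

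GGCCTAA, with GCCTAAA overlapping it by 6 bases, lay on the side of the summit nearer the gene in each of its 4 regions, and 2.61% of all conservative regions held it. Its first base was 71 bp past the summit at *rpl-3*, 58 bp at *rpl-15* and 36 bp at *rpl-7A*, in each case written as above on the strand of the ribosomal protein gene. At *rpl-43* it was on the reverse strand, which is the coding strand of the gene on the other side of the region. This word was not limited to bound members. In the promoter windows it was found in 6 of the 37 members that no thresholded list called, *rpl-1*, *rpl-7*, *rpl-11.1*, *rpl-21*, *rpl-22* and *rpl-26*, which is 16.2%, against 1.26% of all promoters. Of the 13 called members, whose promoter windows often miss the summit, 4 held it. ACACTCG was in 3 of those 37 (8.11%, against 1.06% of all promoters) and in 3 of the 13. CGCTCCA was in 2 of the 37 and in 0 of the 13, and AAAAGCG in 1 and 5. CGACGCA and AACACGC were in 0 of the 37, where their shares over all promoters, 0.896% and 1.71%, leave less than 1 to be counted. Each was in 2 of the 13. The words were picked from regions of called members, so counts among the 13 depend in part on that choice.

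A separate set of 11 words stood for general promoter features, and 4 of them were in at least 1 member region. TATAAA, the core of a TATA box, was in 0 of the 10, against 14.1% of conservative regions and 25% of promoters. TTTCAG, a common splice acceptor word, was in 3 of 10, as was GAGAGA, against 21.8% and 32.1% of conservative regions. TTCGCGC was in 1 region, at *rpl-12*, against 5.49% of conservative regions, and TGCGTCTC in 1, at *rpl-41.2*, against 14%. The E-box CACGTG was in 0, against 7.55%. So was GATAAG, the word that erythroid-type zinc finger factors read, against 5.08%, and so was ATTGGC, the word of the nuclear factor Y complex, against 7.97%. The last 3 words were likewise in 0: CCGCCC of the Sp1 type, against 10.4%, the heat shock half-site pair GAANNTTC, against 14.6%, and the repeat CTCTCTC, against 15.4%. Over 10 regions shares of this size give counts of about 0 to 2, so the counts of 0 and 1 do not set the member regions apart. Both strands were searched within 100 bp of the summit, and a missing word says only that these letters are not in the window.

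*rpl-3* encodes a protein that reaches toward the peptidyl transferase centre, and it had the highest signal of all members. Its region (III, 3867470 to 3867656) ranked 14 of 728 with a signal of 422, and its summit lay 289 bp upstream of the 5′ end, between genes, in no other gene's window. The overlapping candidate region had a signal of 288 in replicate 1 and 124 in replicate 2. In the replicates' own lists it ranked 5 of 577 and 41 of 394.

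*rpl-20* came next with a signal of 382 and rank 18 (IV, 4749998 to 4750152). Its signal was 233 in replicate 1 and 141 in replicate 2, where it was the highest member. The summit was 286 bp upstream of *rpl-20* and 176 bp upstream of Y17G9B.5 on the opposite strand, so it was nearer the neighbour. *rpl-15* had a signal of 298 at rank 35 (IV, 654860 to 654998), with 229 in replicate 1 and 90.9 in replicate 2. Its summit was 345 bp upstream, and 469 bp upstream of K11H12.8 on the other strand.

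*rpl-12* encodes a protein at the base of the stalk. Its region (IV, 13240619 to 13240737) had a signal of 250 at rank 67, with 175 in replicate 1 and 73.5 in replicate 2. The summit was 28 bp upstream of the 5′ end, the closest of all, and in the replicate 2 list it fell 4 bp inside the gene. The same summit lay 365 bp upstream of *lin-54*, which encodes the DNA-binding subunit of the DREAM complex. *rpl-7A* had a summit 60 bp upstream (IV, 4390589 to 4390730; signal 263, rank 55), with 190 in replicate 1 and 80.3 in replicate 2. It shared that region with *set-21*, a SET domain gene whose 5′ end was 194 bp away.

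*rpl-43* had the most distant summit, 757 bp upstream of its 5′ end (II, 14154487 to 14154584; signal 254, rank 62). It lay 164 bp upstream of Y48B6A.1 on the opposite strand, so the assignment to *rpl-43* rests on the width of the window. Its replicates had the lowest ratio among the strong members, with 131 in replicate 1 and 116 in replicate 2. *rpl-35*, whose product sits at the exit of the tunnel, had a region 463 bp upstream (III, 7854617 to 7854707; signal 241, rank 81) in no other gene's window. Its replicates had the highest ratio, with 188 in replicate 1 and 63.7 in replicate 2, and the replicate 2 list did not call it.

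The weak set lay on chromosome I. *rpl-41.2*, which encodes one of the smallest proteins of the ribosome, with 66 bp of coding sequence before the stop codon, had a region centred 251 bp upstream (4789883 to 4790198, signal 125, rank 290). A second one was centred 179 bp downstream (4790313 to 4790628, signal 71.1, rank 630) in an exon outside the coding sequence. Neither replicate list called this second region. Its −log10 irreproducible discovery rate (IDR) was 0.037 in replicate 1 and 0.121 in replicate 2, where the lists require 2. The first had 85.9 in replicate 1 and 49.8 in replicate 2, and the second 33.2 and 40.3, so the second was the single member region with the higher value in replicate 2. *rpl-24.2* had a signal of 80.6 at rank 537 (9669060 to 9669375), with 49.8 in replicate 1 and 33.7 in replicate 2. Its summit was 197 bp upstream, inside an intron of C03D6.1 on the opposite strand.

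**Figure D1:**
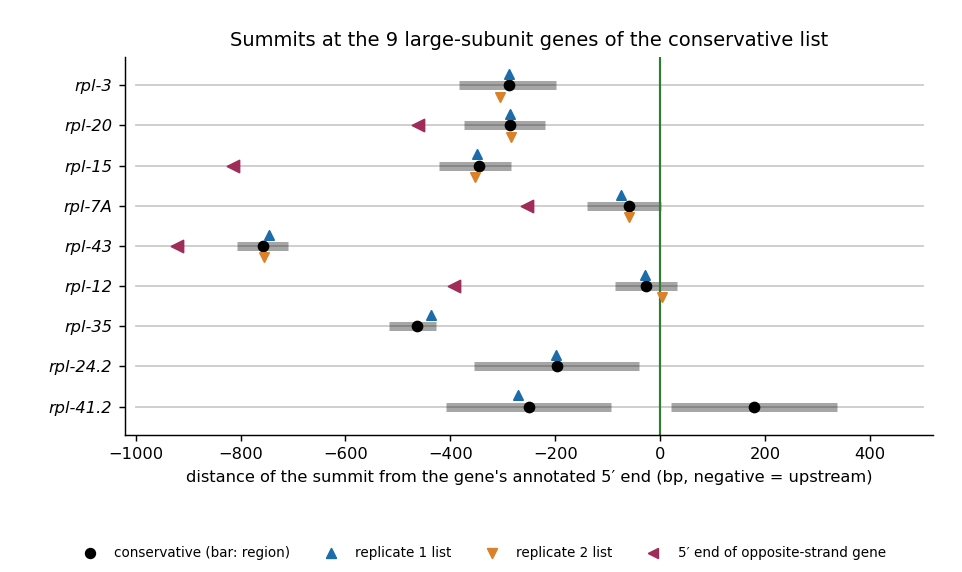
Position of each summit relative to the annotated 5′ end (green line) of the 9 large-subunit genes in the conservative list, with the region as a grey bar. Summits of the replicate lists are triangles and 5′ ends of opposite-strand genes that hold the same summit are red. The summit of highest signal was upstream at all 9 genes, from 28 to 757 bp.

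The summit of highest signal was upstream of the 5′ end at 9 of 9 genes, with a median offset of -286 bp. Over all 632 bound genes 92.6% were upstream and the median was -232 bp. Replicate summits lay close to those of the series: at the 6 genes called in both replicate lists the offsets in replicates 1 and 2 were close at *rpl-20* (-286 and -285 bp) and *rpl-15* (-350 and -353 bp), and differed most at *rpl-12* (-30 and 4 bp). At 5 of 9 genes the summit also lay in the window of another gene, in each case on the opposite strand, which is 55.6%. Among all bound genes 57.1% shared their region, and 52.1% did so with a gene on the opposite strand, so the members were near the general share in this list. In the replicate 2 list 5 of 6 bound members shared their region. The share over all bound genes of that list is not given here, so this count has no comparison.

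The 7 strong regions were narrower than the fixed width of 316 bp that most regions in the list had, at 91 to 187 bp. Of the other 74 regions at least as strong as *rpl-35*, 59 (79.7%) were also narrower, while of all 728 regions 12.5% were. GC content within 100 bp of the summit had a median of 44.3% at the 10 member regions and 43.0% at all conservative regions. By chromosome, 4 of the 8 members on IV were bound, against 3.26% of all genes there. On III it was 2 of 9 (all genes 5.57%), on II 1 of 9 (3.33%) and on I 2 of 17 (4.55%). On V it was 0 of 5 (2%) and on X 0 of 2 (1.17%), where shares of this size leave less than 1 member to be counted.

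Signal at the strong members was higher in replicate 1 than in replicate 2. The ratio of the 2 signals had a median of 2.37 at the 7 strong regions, with a range of 1.13 to 2.96, and it exceeded 2 at 5 of them. At the 74 other regions of equal or higher series signal the median was 1.30, with a range of 0.707 to 3.18, and 8 (10.8%) exceeded 2. The 9 regions at small-subunit genes had a median of 1.72, and 2 of those exceeded 2. Over the 722 conservative regions with a value in both replicates the median was 1.18. The scale of the signal in each replicate is not stated, so a ratio carries any difference in scale. The difference between members and other regions was not tested, since regions of the same 2 libraries are not replicates.

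**Figure D2:**
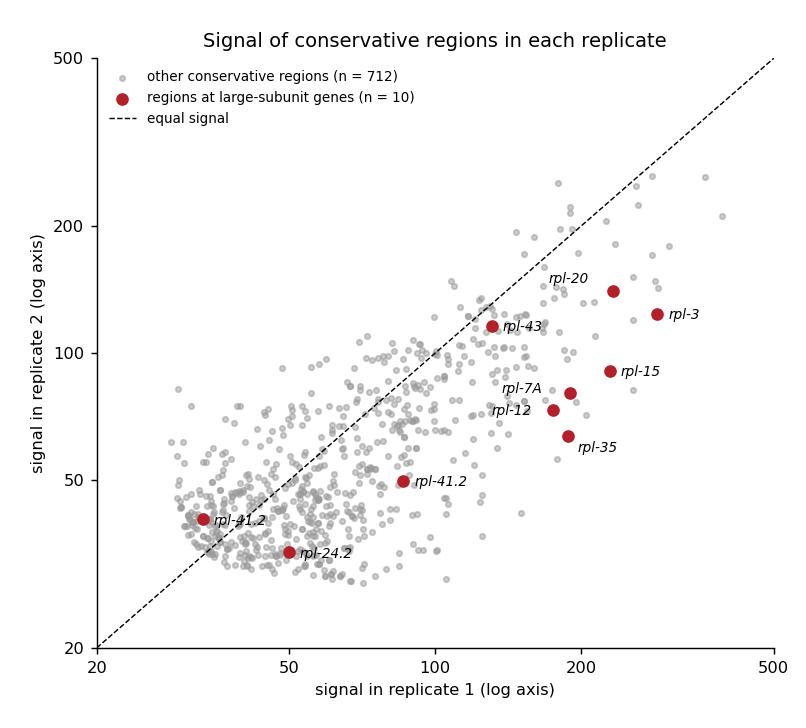
Signal of each conservative region in replicate 1 (horizontal, log axis) and replicate 2 (vertical, log axis), for the 722 regions with a value in both. Regions at large-subunit genes are red, and 9 of the 10 lie below the dashed line of equal signal. Of all 722 regions 67.2% lie below it, as do all 9 regions at small-subunit genes.

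The replicate lists also differed in how many members they called. Replicate 1 called 12 of the 50 genes, or 24%, against 2.89% of all genes, and replicate 2 called 6, or 12%, against 1.79%. All 6 of replicate 2 (*rpl-3*, *rpl-7A*, *rpl-12*, *rpl-15*, *rpl-20* and *rpl-43*) were among the 12. The other 6 of replicate 1 were *rpl-35*, *rpl-41.2*, *rpl-24.2*, *rpl-11.2*, *rpl-29* and *rpl-31*. A second thresholded list of the series, whose basis is not stated in the sources used here, called 13 genes, or 26%, against 3.38%. These were the 9 of the conservative list with *rpl-11.2*, *rpl-29*, *rpl-31* and *rpl-39*.

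These 4 genes had regions mainly in replicate 1. *rpl-39*, whose product lines the wall of the tunnel, had a candidate signal of 69.2 in replicate 1 and 21.5 in replicate 2, and neither replicate list called it. Its region in the second list (V, 7776129 to 7776444, signal 80.9) had its summit 208 bp upstream and lay in the promoter shared with *rps-30*, a small-subunit gene on the opposite strand. *rpl-29* had 65.9 in replicate 1 and 17.3 in replicate 2. *rpl-31*, of the tunnel exit, had 59.2 and 24.3, and its summit was 291 bp upstream but 14 bp from the 5′ end of *sac-2* on the opposite strand. *rpl-11.2*, one of a pair of genes for a protein that binds the smallest ribosomal RNA, had 66.2 in replicate 1, 422 bp upstream. In replicate 2 its highest candidate was 34.1 at another place, 264 bp downstream.

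**Figure D3:**
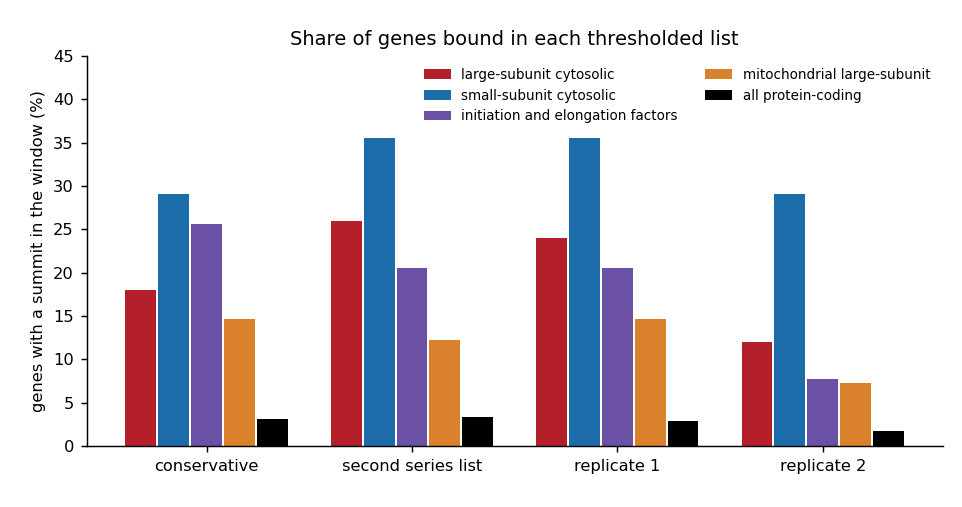
Percentage of genes with a summit in the promoter window in each of the 4 thresholded lists, for 4 gene groups and for all protein-coding genes. Large-subunit genes range from 12% in replicate 2 to 26% in the second series list, and small-subunit genes from 29% to 35.5%.

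Small-subunit genes had a higher share than large-subunit genes in each of the 4 lists. Of 31 *rps-* genes, 9 were bound in the conservative list (29%), 11 in replicate 1 and 9 in replicate 2. Of 39 initiation and elongation factor genes 10 were bound in the conservative list, 8 in replicate 1 and 3 in replicate 2. Of 41 mitochondrial large-subunit genes, which encode a separate ribosome in the organelle, the numbers were 6, 6 and 3. No difference between these groups was tested.

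The remaining 37 large-subunit genes were in none of the 4 lists. The ranked lists hold candidate regions without a threshold, so a candidate by itself says little: 17225 of all genes had one in replicate 1 and 17572 in replicate 2. The highest candidate signal at the 37 genes ran from 8.04 to 59.0 in replicate 1, with a median of 17.0 over 34 genes, and from 4.63 to 36.4 in replicate 2, with a median of 19.8 over 30 genes. The medians over all protein-coding genes were 16.9 and 17.1. *rpl-36* (59.0), *rpl-22* (31.98) and *rpl-25.2* (31.3) were highest in replicate 1. Their values in replicate 2 were 21.5, 20.2 and 7.32. In replicate 2 *rpl-5* (36.4), *rpl-41.1* (35.9) and *rpl-36.A* (30.8) were highest, against 21.0, 13.1 and 29.2 in replicate 1. *rpl-5* encodes another protein that binds the smallest ribosomal RNA.

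No candidate region lay in the window of *rpl-6*, *rpl-14* or *rpl-21* in either replicate, and none in that of *rpl-9*, *rpl-17*, *rpl-18* or *rla-2* in replicate 2. The stalk genes were called in none of the lists. *rla-0* had 15.2 and 18.1 in replicates 1 and 2, *rla-1* had 16.0 and 26.1, and *rla-2* had 12.6 in replicate 1. The replicate 2 value of *rla-1* was at percentile 88 of all genes, but its summit lay 477 bp downstream of the 5′ end, near the gene's other end. In replicate 1 the highest candidate of *rla-1* was elsewhere, 170 bp downstream, at percentile 52.4. The large-subunit gene nearest to the IDR threshold from below was *rpl-36.A*, with a −log10 irreproducible discovery rate (IDR) of 1.65 in the series ranked list at its highest region, against 2.3 at *rpl-24.2*, the bound gene with the lowest value at its highest region. The threshold in the lists is 2. By position, the nearest conservative summits outside the window were 742 bp downstream of a 5′ end of *rpl-27* and 851 bp downstream of that of *rpl-41.1*. The latter is the upstream region of *rpl-41.2*, which lies downstream on the same strand.

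**Figure D4:**
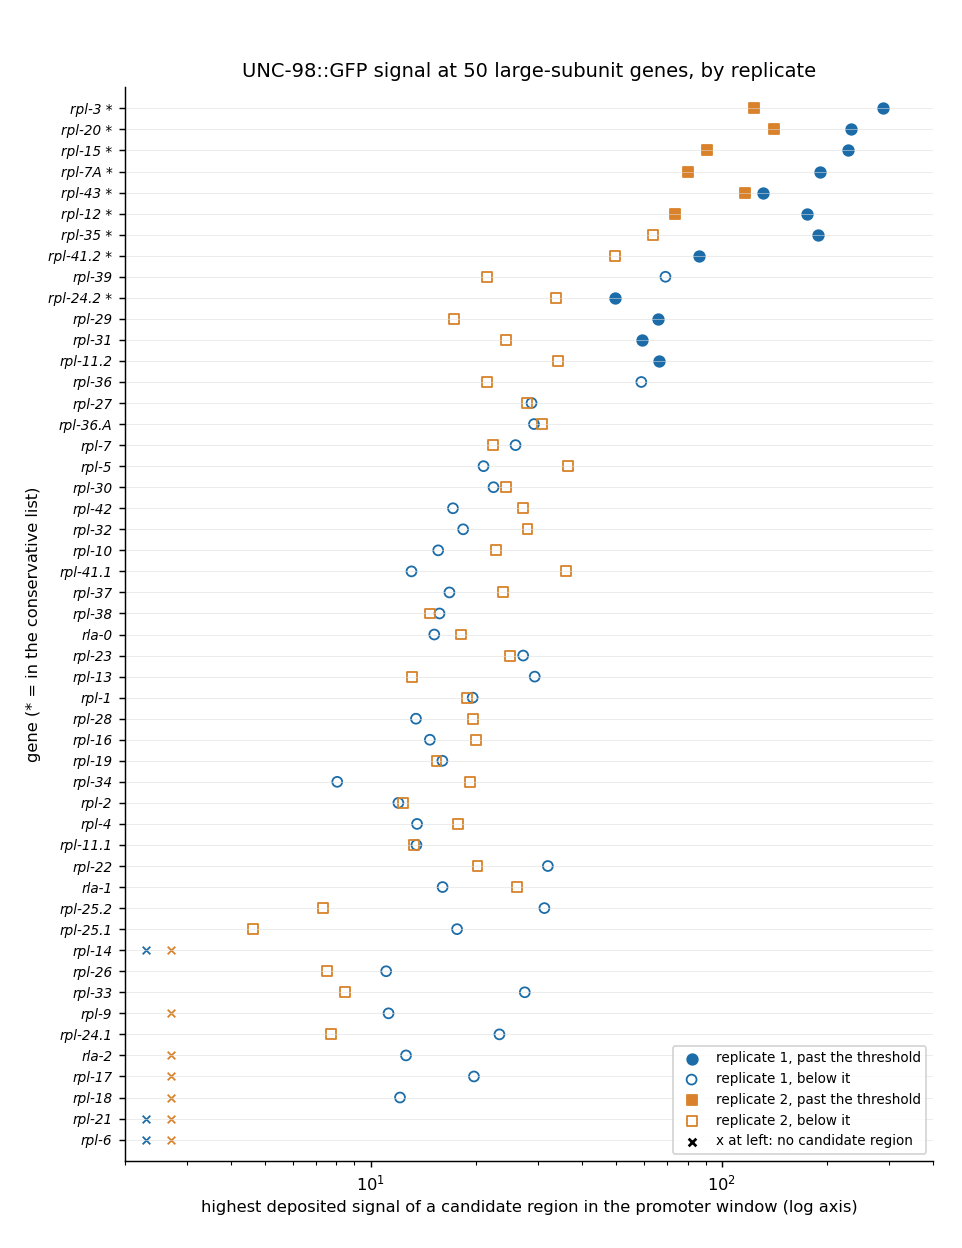
Highest candidate signal in the promoter window of each of the 50 genes in replicate 1 (circles) and replicate 2 (squares), on a log axis, ordered by the series signal. Filled symbols are genes called in that replicate's list, an asterisk marks the 9 genes of the conservative list, and crosses mark genes with no candidate region. The 6 genes called in both replicates had 73.5 or more in each.

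Genes with similar names were set side by side, and in some pairs only 1 gene was in a list. No difference within a pair was tested. *rpl-41.2* was in the conservative list and *rpl-41.1*, with the same coding length of 66 bp, was in no list. *rpl-41.1* had 13.1 and 35.9 in replicates 1 and 2, the latter at percentile 96.4 of all genes. *rpl-24.2* was in the conservative list and *rpl-24.1*, which encodes the ribosomal protein itself, in no list, with 23.3 and 7.70. *rpl-11.2* was called in replicate 1 and in the second series list but not in the conservative list. *rpl-11.1* was in no list, with 13.5 and 13.3. *rpl-7A* was bound and *rpl-7* was not, at 25.9 and 22.3. These last encode different proteins despite the names. Neither *rpl-25.1* nor *rpl-25.2* was in any list, with 17.6 and 31.3 in replicate 1 and 4.63 and 7.32 in replicate 2.

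Over all members with a candidate region, the median highest signal was 22.4 in replicate 1 (47 genes) and 22.8 in replicate 2 (43 genes), above the 16.9 and 17.1 of all genes. Of the 47 members 19 (40.4%) exceeded the 90th percentile of all genes in replicate 1, and 13 of 43 (30.2%) did so in replicate 2. For small-subunit genes these shares were 56.7% and 35.5%. Each of the 9 bound genes lay at or above percentile 97.2 of all genes in replicate 1 and 95.6 in replicate 2. These genes were called from the same 2 replicates, so high percentiles follow from how they were chosen.

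Across the 43 members with a value in both replicates the highest signals had a Spearman's rho of 0.587 and a Pearson's r of 0.748 on the log2 scale. Across the 34 of these outside the conservative list rho was 0.199, and across 15636 protein-coding genes it was 0.315. The 15636 genes and the 43 members include genes of the conservative list, whose regions had to rank alike in both replicates. The value for the 34 is therefore not from a like set. All these values are descriptions across genes of the same 2 libraries. Both lists were made with the same control file, per the deposited file descriptions, and the highest candidate of a gene need not be at the same place in both.

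**Figure D5:**
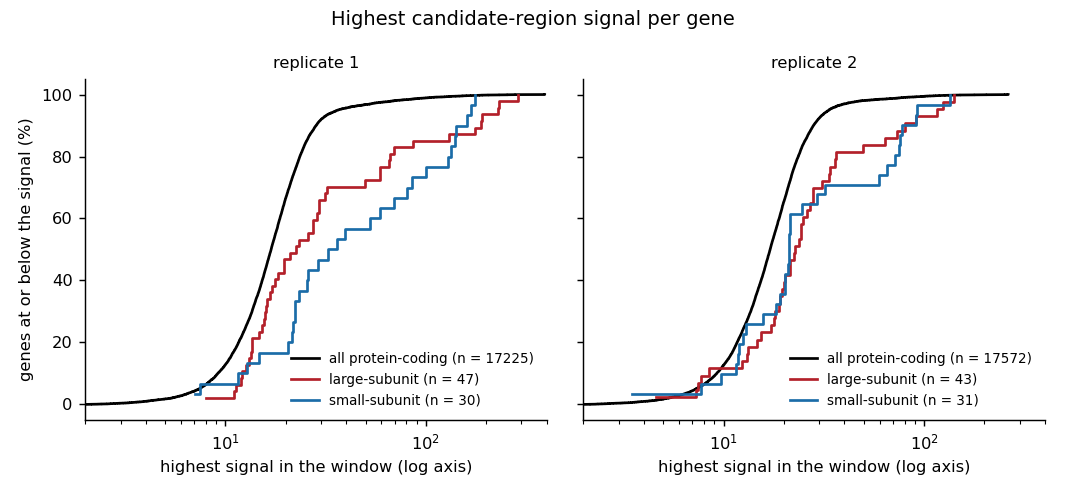
Cumulative percentage of genes by highest candidate signal in the promoter window (log axis), in replicate 1 and replicate 2. The large-subunit curve has lower quartiles of 15.4 and 17.5 against 12.6 and 12.7 for all genes, medians of 22.4 and 22.8 against 16.9 and 17.1, and extends to 288 and 141.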

How the data were processed

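ChIP-seq with an anti-GFP antibody was done on 2 biological replicates; chromatin was sonicated to 200 to 800 bp, per the labels. Regions were derived by the authors from filtered alignments to ce11 and a control file, per the deposited file descriptions; the sources used here name neither aligner nor peak caller. Each of the 8 deposited lists gives its regions a signal; the deposited ranked lists add −log10 IDR values that stop at 5. The lowest value in the thresholded lists is just above 2, an IDR of 0.01. Without read counts the depth per sample is unknown, and no interval is given. The series ranked lists also hold 16 columns of per-replicate values under no sample name, which were left out.

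Summits were assigned to 5′ ends of protein-coding transcripts of Ensembl release 115 on 6 chromosomes; all region ends lay within the lengths of the RefSeq genome of that build. A replicate's signal for a series region was that of its candidate region with most shared bases. Named were all bound members, members of any other list, and, of the others, the 3 highest per replicate and those with no candidate. Members, gene lists and words were chosen with earlier results of these data known. Assignment was tested on simulated data. Python 3.11.15, pandas 2.3.3, NumPy 2.4.6, SciPy 1.17.1 and matplotlib 3.10.9 were used. Alternatives covered lists, replicates, IDR, signal, windows, gene assignment, overlap and word windows.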

Additional observations from a re-analysis of the deposited data

How the results depend on the processing

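The number of bound large-subunit genes stayed within 1.5 times of 9 under the 10 alternatives tried. It was 6 to 12 with 1 replicate left out, 13 in the second series list, 8 at an IDR of 0.001 (1.45% of all genes), 8 above the median signal (1.92%) and 8 with a window from 500 bp upstream to 200 bp downstream (2.50%), which dropped *rpl-43*. It was 9 with a window from 2000 bp upstream (4.12%), 9 with any base of the region in the window (3.35%), 9 with non-coding transcripts included (3.18%, chosen after seeing the data), and 7 with each summit given to the nearest 5′ end (2.25%), without *rpl-20* and *rpl-43*. The median offset was -295.5 to -287.5 bp with 1 replicate left out and -268.5 bp in the narrow window. Genes sharing their region numbered 8 of 13 in the second series list, against 5 of 9. The number was 5 of 6 without replicate 1, 7 of 12 without replicate 2, 4 of 8 in the narrow window and 6 of 9 in the wide one. The shares over all bound genes under these alternatives are not given here.

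With the narrow window the median highest signal was 23.3 and 23.8 in replicates 1 and 2, over 41 and 33 members with a region. All genes had 15.0 and 15.1 there. With the wide window it was 23.3 and 23.6, where all genes had 18.8 and 19.1. As a sum over the window it was 37.5 and 34.4, where all genes had 25.4 and 26.2. At least 1 of the 11 fixed words lay in 6 of the 10 member regions within 100 bp of the summit, in 1 of 10 within 50 bp and in 8 of 10 within 150 bp. Of all conservative regions 77.3%, 55.4% and 88.7% held one. Within 150 bp TATAAA was in 1 member region, GAANNTTC in 2, CTCTCTC in 1 and ATTGGC in 1. Small-subunit counts ranged from 9 to 11. No paired analysis was possible because the 2 replicates form 1 group. The unknown depth limits every statement about genes that were not called.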
